A study of Mus musculus with 4 samples.

Results

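The bone morphogenetic protein (BMP) pathway and the inhibitor of DNA binding (ID) genes were followed in the RNA of mouse fibroblasts through 10 genes: the ligand gene *Bmp4*, the receptor genes *Bmpr1a* and *Bmpr2*, the SMAD genes *Smad1*, *Smad5* and *Smad6*, and the ID genes *Id1*, *Id2*, *Id3* and *Id4*. Every tested transcript carrying one of these symbols was taken, which gave 17 transcripts out of 34200 and 10 genes out of 21945. NIH/3T3 is an immortalised mouse fibroblast line, and all samples were this line. Polyadenylated RNA was sequenced 48 h after transfection with siRNAs at a final concentration of 10 nM. The KD group, of 2 libraries, received siRNAs against *Setd2*, which encodes the methyltransferase that trimethylates histone H3 at lysine 36. The WT group, also of 2 libraries, received Scrambled siRNA with the same lipid reagent, so that WT cells were transfected cells and not untouched ones. The *Setd2* siRNAs were given as a mixture, and their separate effects cannot be told apart.

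The values examined here were pooled over all 4 libraries, and single libraries were not analysed here. Each level is therefore the geometric mean over KD and WT together, in normalised estimated counts, which are the reads assigned to a transcript after scaling of each library. Each SD is on the log2 scale over the 4 libraries. It holds any effect of the knockdown as well as the error between replicates, which cannot be told apart in it. Neither a direction nor a test of KD against WT is given for any gene, and the depth of single libraries is unknown.

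BMP ligands bind a pair of type I and type II serine/threonine kinase receptors, and the activated type I receptor phosphorylates SMAD1, SMAD5 and SMAD9. These receptor-regulated SMADs enter the nucleus with SMAD4 and switch on target genes, among which the ID genes are the classical ones, while SMAD6 and SMAD7 inhibit the pathway. ID proteins carry a helix-loop-helix domain but no basic region. They bind E proteins such as those from *Tcf3*, *Tcf4* and *Tcf12* and keep them off DNA. In this way ID proteins hold back differentiation in many cell types, muscle precursors included.

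The sequences in which the isoforms of these genes part are shown first, since the second isoform of *Id1*, *Id2*, *Bmpr1a* and *Smad1* reads on past a splice donor site that the most abundant isoform uses. All positions are in GRCm38 with the GENCODE M21 annotation. Each line gives the last 15 bases of the shared coding exon in lower case and the coding bases that follow in capitals, 5′ to 3′ on the strand of the gene. For the spliced isoforms of *Bmpr1a* and *Smad1* the first 60 of the following coding bases are given, and for the others all of them. *Id1* lies on the plus strand, and its read-through stretch is chr2:152736746-152736844. On the minus strand are those of *Id2* (chr12:25095546-25095662), *Bmpr1a* (chr14:34414733-34414759) and *Smad1* (chr8:79343624-79343653).
Id1 spliced: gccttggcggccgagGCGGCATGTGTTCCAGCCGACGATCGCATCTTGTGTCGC
Id1 read-through: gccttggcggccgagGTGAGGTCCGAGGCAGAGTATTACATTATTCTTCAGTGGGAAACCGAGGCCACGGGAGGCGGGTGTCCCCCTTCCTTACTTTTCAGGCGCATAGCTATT
Id2 spliced: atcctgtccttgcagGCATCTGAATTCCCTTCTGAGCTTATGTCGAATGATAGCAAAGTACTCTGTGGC
Id2 read-through: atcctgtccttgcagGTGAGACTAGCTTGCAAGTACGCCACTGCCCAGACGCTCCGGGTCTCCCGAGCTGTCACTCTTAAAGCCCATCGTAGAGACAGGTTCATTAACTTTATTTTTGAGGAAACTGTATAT
Bmpr1a spliced: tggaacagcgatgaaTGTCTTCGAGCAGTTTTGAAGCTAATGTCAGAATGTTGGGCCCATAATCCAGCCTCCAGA
Bmpr1a read-through: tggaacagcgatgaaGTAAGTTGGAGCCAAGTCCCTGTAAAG
Smad1 spliced: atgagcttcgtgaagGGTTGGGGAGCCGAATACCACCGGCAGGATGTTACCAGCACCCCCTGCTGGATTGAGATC
Smad1 read-through: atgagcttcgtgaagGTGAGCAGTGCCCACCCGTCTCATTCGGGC

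All 4 read-through stretches open with GT, the bases that mark the start of an intron, and all are annotated as coding. The annotated *Id1* protein had 148 codons when spliced and 168 when read through, with 39 and 99 coding bases after the donor site. For *Id2* the coding sequence had 134 codons when spliced and 155 when read through, with 54 and 117 coding bases after the donor site. Both ID isoforms thus keep the first coding exon and end in a longer tail. The reverse held for the other pair, where reading through gave the shorter protein. The *Bmpr1a* coding sequence had 532 codons when spliced and 500 when read through, with 123 and 27 coding bases after the donor site, and that of *Smad1* had 465 and 428 codons, with 141 and 30 coding bases.

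The donor site was that of exon 1 of 2 in *Id1* and of exon 1 of 3 in *Id2*, both upstream of short introns of 226 and 288 bases. In *Bmpr1a* it was that of exon 12 of 13, followed by an intron of 90 bases, and in *Smad1* that of exon 6 of 7, followed by an intron of 3861 bases. The read-through isoforms of *Id1*, *Id2* and *Bmpr1a* ended 665, 533 and 274 bases past the donor site, beyond the end of that intron. Those of *Id1* and *Bmpr1a* ended within the last exon of the spliced isoform. That of *Id2* ended inside the next intron. Exon 2 of spliced *Id2* ends 352 bases past the donor site, and exon 3 starts 1087 bases past it. The *Smad1* read-through isoform ended 2074 bases past its donor site, inside the intron that follows that site.

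**Figure D1:**
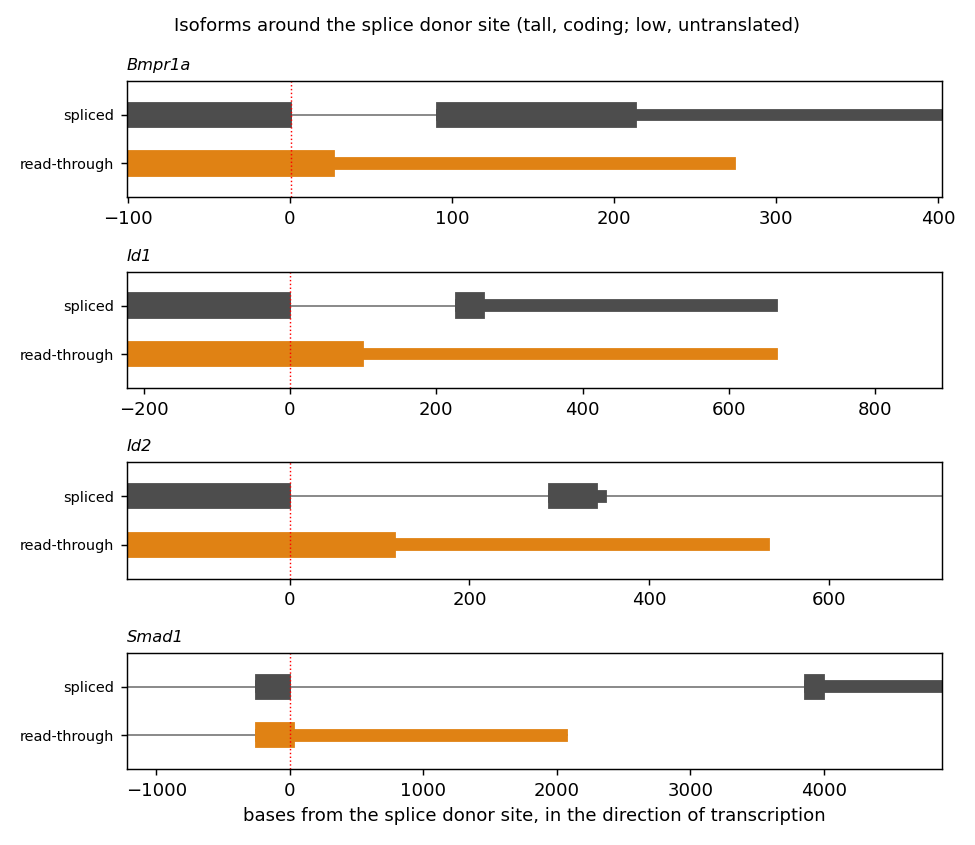
Spliced (grey) and read-through (orange) isoforms of *Bmpr1a*, *Id1*, *Id2* and *Smad1* by distance in bases from the shared splice donor site (dotted line), with coding bases tall and untranslated bases low. The read-through isoforms of *Bmpr1a*, *Id1* and *Id2* run 274, 665 and 533 bases past the donor site and cover the whole intron after it. That of *Id2* stops inside the next intron, and that of *Smad1* stops after 2074 of the 3861 bases of its intron.

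The 10 genes were ranked by their summed levels per kilobase of transcript. On this scale genes of different length can be compared. *Id3*, *Id1* and *Id2* were the highest, at 3167, 3010.0 and 2831 normalised estimated counts per kilobase, and stood at the 93.3rd, 92.9th and 92.4th percentile of 21607 genes. *Bmpr1a* followed at 1185, *Smad1* at 580.4, *Smad5* at 372 and *Bmpr2* at 209, all above the level of the median gene, 120.4 per kilobase. *Smad6* at 62.0, *Id4* at 23.6 and *Bmp4* at 1.05 lay below it. The percentile of *Bmp4* was 1.601. In RNA of whole cultures, fewer cells that express a gene and less RNA per cell cannot be told apart.

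Neighbours in this order were set against their spread, a gap counting as beyond it where it was larger than both SDs together. Of the 9 neighbouring pairs, 2 lay within their spread, namely *Id3* and *Id1*, which differed by 0.07 on the log2 scale where their SDs added up to 0.76, and *Id1* and *Id2*, which differed by 0.09 where their SDs added up to 1.20. The order among *Id1*, *Id2* and *Id3* is therefore not settled by these values. With an effective length in place of the annotated one, *Id1* came out at 3791 and *Id3* at 3754 per kilobase. Relative to the SDs, the smallest of the other gaps was that between *Id2* and *Bmpr1a*, of 1.26 against 1.01. The gap between *Id4* and *Bmp4* was the widest on the log2 scale, at 4.49 against 2.41.

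**Figure D2:**
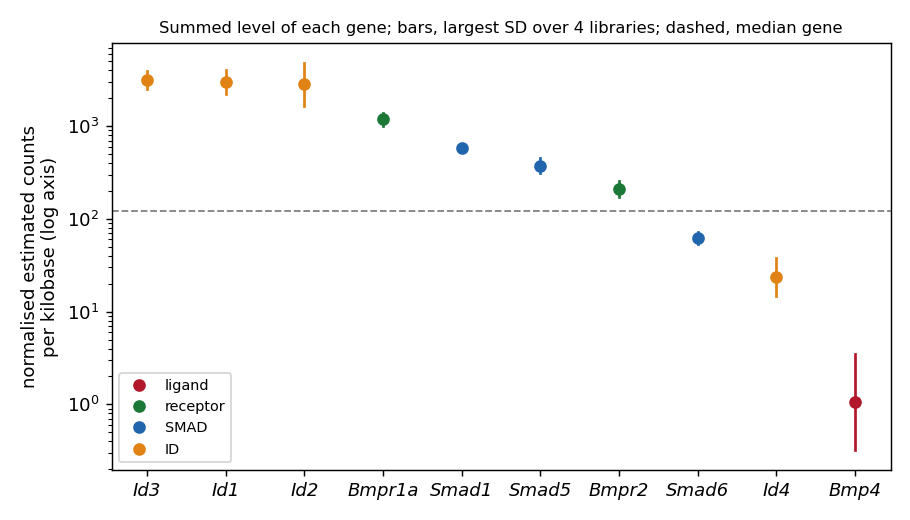
Summed level of each gene in normalised estimated counts per kilobase (log axis), geometric mean over 4 libraries, in falling order; points are coloured by role, bars are the largest SD over the KD and WT libraries that the transcripts allow, and the dashed line is the median gene. *Id3*, *Id1* and *Id2* overlap between 2831 and 3167 per kilobase, and *Bmp4*, at 1.05, is separated from *Id4*, at 23.6.

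The ligand gene *Bmp4* was near the floor of the data. Its single tested transcript, ENSMUST00000074077.11 (chr14, minus strand, 46383520 to 46390669), had a level of 2.17 normalised estimated counts with an SD of 1.72 on the log2 scale, so that 1 SD reached from 0.312 to 8.26. Only 0.98% of all tested transcripts had a lower level. This SD was below that of most transcripts with so few reads, at the 14.4th percentile of the 500 transcripts nearest in level, whose median was 2.48.

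Among the other BMP and growth differentiation factor genes, 6 of the 14 listed had a tested transcript, with a median level of 4.48 per kilobase. *Bmp1* was the highest at 917, but it encodes a secreted metalloprotease that cleaves procollagens and the antagonist chordin and is no BMP ligand in spite of its name. Without it, 5 of 13 ligand genes were tested, with a median of 3.77 per kilobase, led by *Gdf5* at 327 and *Bmp7* at 5.19. Genes of secreted antagonists, which bind BMPs or related ligands outside the cell, had a higher median, 208 over the 12 of 15 tested. *Gdf5* lay above that median, and the tested antagonist genes ranged down to 2.61 per kilobase. *Fstl1* at 2834, *Grem1* at 2776 and *Twsg1* at 1695 per kilobase led them, and the product of *Grem1*, gremlin 1, traps BMP2 and BMP4. *Nog*, which encodes noggin, and the ligand gene *Bmp2* had no tested transcript.

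The type I receptor gene *Bmpr1a* was higher than the type II receptor gene *Bmpr2*. Per kilobase the ratio was 5.66, which is 2.50 on the log2 scale where the SDs added up to 0.51. The longer *Bmpr1a* transcript, ENSMUST00000049005.14 (chr14, minus strand, 34410734 to 34502687), had a level of 5353 normalised estimated counts with an SD of 0.23, at the 94.4th percentile of all transcripts. The read-through transcript ENSMUST00000165280.7 had a level of 556 with an SD of 0.26.

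The tested *Bmpr2* transcript, ENSMUST00000087435.6 (chr1, plus strand, 59763400 to 59879014), had a level of 2702 normalised estimated counts with an SD of 0.27. Before division by length it was thus already below *Bmpr1a*, whose transcripts summed to 5909, and with its length of 12899 bases it came to 209 per kilobase. Of the 10 other receptor and co-receptor genes, 8 were tested, with a median of 135 per kilobase. *Acvr1*, a further type I receptor gene, was the highest at 561, ahead of the co-receptor genes *Rgma* at 345 and *Rgmb* at 274. *Acvr2a*, a type II receptor gene, had 200.7 per kilobase, close to *Bmpr2*, and *Acvr2b*, a further one, had 69.8. *Bmpr1b*, the paralog of *Bmpr1a*, had no tested transcript.

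The receptor-regulated SMAD genes *Smad1* and *Smad5* were higher than the inhibitory *Smad6*. *Smad1* was 1.56-fold higher than *Smad5* per kilobase, 0.64 on the log2 scale where the SDs added up to 0.39. It was 9.37-fold and *Smad5* 6.01-fold higher than *Smad6*. The most abundant *Smad1* transcript, ENSMUST00000066091.13 (chr8, minus strand, 79338395 to 79399518), had a level of 1647 normalised estimated counts and an SD of 0.12, the smallest of the 17 transcripts, at the 29.6th percentile of transcripts of like level. Its read-through isoform ENSMUST00000109885.7 had a level of 185 with an SD of 0.22.

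*Smad5* (chr13, plus strand) had 3 tested transcripts with the same coding sequence of 1395 bases. ENSMUST00000069557.13 had a level of 2104 normalised estimated counts with an SD of 0.26, ENSMUST00000109874.1 a level of 181 with an SD of 0.24, and ENSMUST00000109876.7 a level of 58.8 with an SD of 0.49. The split between the minor transcripts rests on few reads of their own. Of the words of 31 bases in ENSMUST00000109874.1 only 1.599% occurred in no other tested transcript of the gene and in no transcript of another gene, and its SD from read assignment was 1.90, at the 98.0th percentile of transcripts of like level and larger than its SD over the libraries.

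The *Smad6* transcript ENSMUST00000041029.5 (chr9, minus strand, 63953076 to 64022059) had a level of 184 normalised estimated counts with an SD of 0.22. It was the only tested transcript of its gene, and all of its words of 31 bases were absent from the transcripts of other genes. *Smad4*, the shared partner of the receptor-regulated SMADs, had 686 per kilobase, and *Smad7*, the other inhibitory SMAD gene, had 560.0, against 62.0 for *Smad6*. *Smad9*, the paralog of *Smad1* and *Smad5*, was low at 37.9 per kilobase.

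The ID genes split into a high set and *Id4*. Per kilobase, *Id3*, *Id1* and *Id2* were 134-fold, 127-fold and 119.8-fold higher than *Id4*, gaps of 7.07, 6.99 and 6.90 on the log2 scale where the SDs added up to 1.02, 1.12 and 1.47. The *Id3* transcript ENSMUST00000008016.2 (chr4, plus strand, 136143497 to 136145392) had a level of 4047 normalised estimated counts with an SD of 0.33, and the *Id4* transcript ENSMUST00000021810.2 (chr13, plus strand, 48261228 to 48266026) a level of 90.9 with an SD of 0.69.

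*Id1* (chr2, plus strand, 152736251 to 152737410) had a level of 2248 normalised estimated counts for the spliced transcript ENSMUST00000038368.8, with an SD of 0.42, and of 699.98 for the read-through transcript ENSMUST00000109824.1, with an SD of 0.47. Both *Id1* transcripts start and end at the same bases and differ by the intron alone.

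*Id2* (chr12, minus strand) had 3 tested transcripts, and its spread over the libraries stood out. The spliced transcript ENSMUST00000020974.6 had a level of 2839.9 normalised estimated counts with an SD of 0.74, so that 1 SD reached from 1701 to 4742. The read-through transcript ENSMUST00000222667.1 had a level of 563 with an SD of 0.90, and 1 SD reached from 302 to 1048. A further transcript with 4 exons, ENSMUST00000221761.1, had a level of 13.2 with an SD of 0.72.

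**Figure D3:**
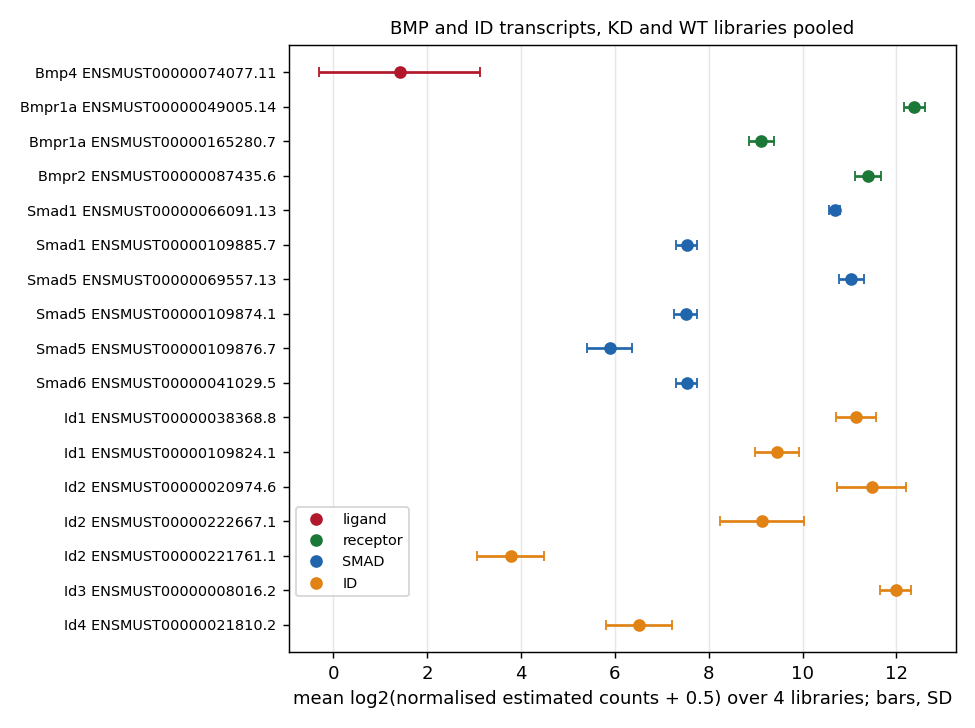
Mean of log2(normalised estimated counts + 0.5) over 4 libraries for each of the 17 transcripts, with bars of 1 SD over the KD and WT libraries and colours by role. *Bmp4* has the lowest level and the longest bar, *Smad1* ENSMUST00000066091.13 the shortest bar, and the *Id2* bars are longer than those of the SMAD and receptor transcripts.

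The spread over the 4 libraries was then compared with that of transcripts of like level, since transcripts with few reads vary more. The median SD was 0.33 over the 17 transcripts and 0.31 over all tested transcripts. Of the 17, 12 had an SD above the median of the 500 transcripts nearest in level. For 3 of them it was at or above the 90th percentile. Those 3 were the *Id2* transcripts ENSMUST00000020974.6 and ENSMUST00000222667.1, both at the 99.0th percentile, and the spliced *Id1* transcript, at the 92.0th. Over all tested transcripts, about as many lie above such a median as below it, by its definition. A 90th percentile likewise leaves a small share of any set of transcripts above it by definition. Isoforms of the same gene share sequence, so their spreads are not separate observations. The counts were not tested.

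Close below lay the *Id4* transcript at the 88.2nd percentile, the read-through *Id1* transcript at the 87.0th and the *Id3* transcript at the 86.6th. The third *Id2* transcript, with its few reads, stood at the 73.2nd. The receptor transcripts lay between the 56.6th and the 76.6th percentile and the SMAD transcripts between the 29.6th and the 73.4th. All 7 ID transcripts, which come from *Id1*, *Id2*, *Id3* and *Id4*, thus had an SD above the median of transcripts of like level. The 3 receptor transcripts did as well, while 2 of the 6 SMAD transcripts did. For comparison, *Setd2* itself, the targeted gene, had a level of 1844 normalised estimated counts and an SD of 1.152, at the 99.8th percentile of transcripts of like level. Its pooled level cannot check the label of a single library.

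Read assignment added little to the spread of the abundant ID transcripts. The SD from read assignment was 0.037 for the spliced *Id2* transcript and 0.079 for its read-through isoform, 0.041 and 0.09 for those of *Id1*, and 0.021 for *Id3*, each far below the SD over the libraries. The variance from read assignment was larger than that over the libraries in 3 of the 17 transcripts, namely the minor *Smad5* transcripts and *Id2* ENSMUST00000221761.1, and in 27.7% of all tested transcripts.

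**Figure D4:**
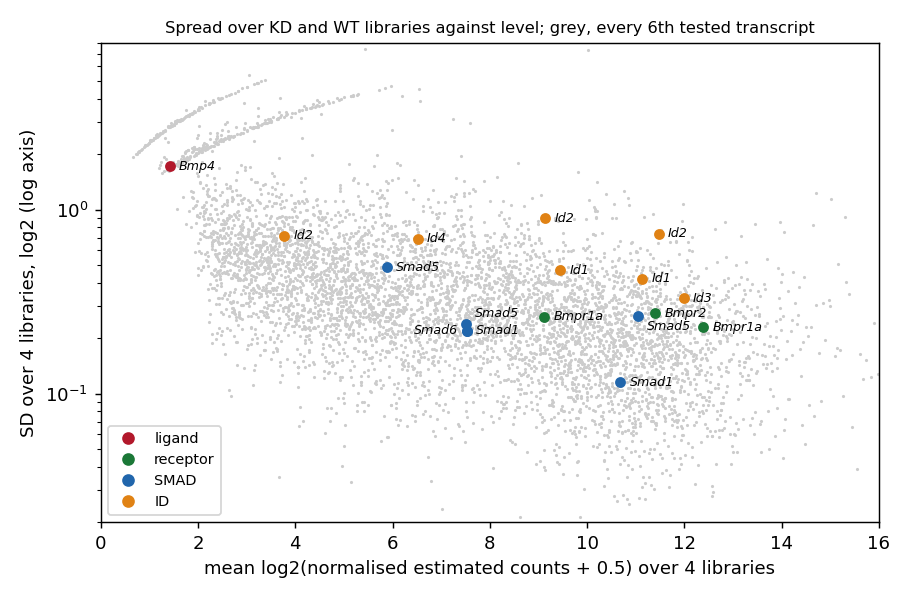
SD over the KD and WT libraries on the log2 scale (log axis) against the mean of log2(normalised estimated counts + 0.5) for the 17 transcripts, coloured by role, with every 6th tested transcript in grey. The 2 abundant *Id2* transcripts, with SDs of 0.74 and 0.90, lie among the highest grey points of their level, and *Smad1*, with an SD of 0.12, lies below their middle.

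The isoforms of *Id1*, *Id2*, *Bmpr1a* and *Smad1* that read past the donor sites shown above were minor but not rare. Per kilobase, the read-through isoform made up 24.1% of the level of *Bmpr1a*, 20.8% of *Id2*, 20.05% of *Id1* and 8.42% of *Smad1*. In normalised estimated counts, not divided by length, the shares were 9.41%, 16.5%, 23.7% and 10.1%. The spliced isoform was higher than the read-through one by 3.14-fold per kilobase in *Bmpr1a*, 3.80-fold in *Id2*, 3.99-fold in *Id1* and 10.9-fold in *Smad1*. Each of these gaps exceeded the sum of the SDs of the pair, least so in *Id2*, where the gap of 1.93 on the log2 scale stood against 1.64.

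Of the 5 genes with more than 1 tested transcript, 4 thus had an isoform whose last exon runs at least 20 bases past a donor site of the most abundant transcript, *Smad5* being the exception. Over all genes with more than 1 tested transcript, 1085 of 6893, or 15.7%, had such an isoform. Where there was one, its median share per kilobase was 13.6%, with quartiles of 5.64% and 27.1%. The share in *Bmpr1a* stood at the 70.2nd percentile of these genes, that in *Id2* at the 64.8th, that in *Id1* at the 63.6th and that in *Smad1* at the 34.3rd, so that the shares themselves were ordinary. The rule for these isoforms was set after the annotation and the levels of the 10 genes had been seen, and no test was made of the count.

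How well reads can tell the isoforms apart differs between the genes. In the read-through transcripts, 53.2% of the words of 31 bases of *Id2*, 22.4% of *Id1*, 55.2% of *Smad1* and 6.27% of *Bmpr1a* were found neither in another tested transcript of the gene nor in a transcript of another gene. In the spliced *Id1* transcript 2.99% were its own. In the spliced *Id2* transcript there was none, as each of its words is also in such a transcript. This does not mean that it matches its read-through isoform, which ends before exon 3 of the spliced one. Words found neither in that isoform nor in *Gm6175* were shared with ENSMUST00000221761.1, which held 0.387% of the counts of *Id2*. Untested isoforms of the same gene were left out of this comparison, so these shares are upper limits. Reads from RNA that still holds the intron are counted with the read-through isoform, and the part of such RNA in these levels was not tested.

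*Id1*, *Id3* and *Smad6* shared no word of 31 bases with any other gene. *Id2* shared 39 words with the predicted gene *Gm6175*, *Id4* shared 119, of which 117 were with *Gm49291*, and the longer *Bmpr1a* transcript shared 260 with *Gm17110*. *Smad5* ENSMUST00000109874.1 shared 81, of which 70 were with *Gm27301*. *Bmpr2* shared 21, and the other *Smad5* transcripts and those of *Smad1* shared fewer. The *Bmp4* transcript shared 79 words, 3.92% of its own, with 2761 other genes in all, at a level of only 2.17 normalised estimated counts. Of these words, 59 were shared with *Gm15217*. The levels of these members are uncertain to the extent that reads were divided with those genes.

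The remaining genes of the pathway were taken from a list of 59, of which 43 had a tested transcript. The intracellular regulators were all tested, 8 of 8, with a median of 1127 per kilobase. *Fkbp1a*, which encodes the FK506-binding protein that sits on type I receptors and keeps them inactive, had 5675 per kilobase, *Ctdsp2*, a phosphatase gene, 2659.9, and *Ppm1a*, a further phosphatase gene, 1642. The E protein genes, whose products the ID proteins bind, were all tested, with 1767 per kilobase for *Tcf3*, 1016 for *Tcf12* and 903 for *Tcf4*. The levels per kilobase of *Id1*, *Id2* and *Id3* lay above that of *Tcf3* by 0.77, 0.68 and 0.84 on the log2 scale, gaps within their spread, as the SDs added up to 1.04, 1.38 and 0.94. Of 6 further target genes 3 were tested, namely *Runx2* at 479, *Atoh8* at 272 and *Msx2* at 2.00 per kilobase.

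**Figure D5:**
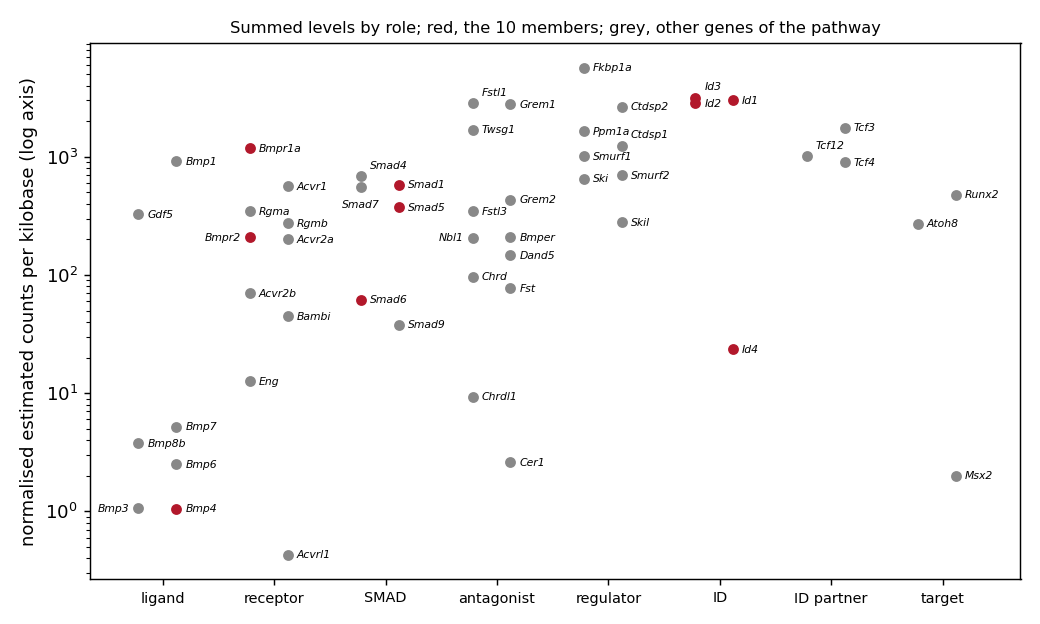
Summed level in normalised estimated counts per kilobase (log axis), geometric mean over 4 libraries, of the 10 genes (red) and of the 43 other tested genes of the pathway (grey), arranged by role. *Bmp4* lies beside *Bmp3* among the lowest, *Grem1* and *Fstl1* lie at 2776 and 2834, and *Id4* lies far below the other ID genes.

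The cells carried the RNA of fibroblasts. All 10 fibroblast markers were tested, with levels from 423 per kilobase for *Fbn1* to 458932 for *S100a4*. Epithelial markers reached at most 25.4 per kilobase, with 2 of 4 tested and *Epcam* and *Krt18* not tested, and the 3 endothelial markers reached at most 9.24. Of the immune markers, *Cd68* had 287 per kilobase, whereas *Ptprc*, the defining marker, had 6.398 and *Adgre1* had 0.416. The muscle marker *Des* had 48.3, and *Myod1*, *Myog*, *Sox10* and *Gfap* had no tested transcript.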

How the data were processed

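Polyadenylated RNA of 2 KD and 2 WT (Scrambled) libraries of NIH/3T3 cells, in the groups given by the labels, was quantified by the authors with Kallisto and compared with Sleuth. The annotation used as the index is not given in the sources used here. The mean that the authors deposited for each transcript is on the natural log scale, of estimated counts divided by a size factor per library, plus 0.5, pooled over the 4 libraries. That table also holds the deposited variance over the libraries and the variance from read assignment on the same scale. The other 15 columns hold the comparison of the authors (test statistics, p-values, q-values, effects, standard errors and model variances). They were not used, nor was the gene table, which holds p-values and q-values only.

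The planned test of KD against WT assumed values of single libraries, so it was not made. Levels were computed as the exponential of the mean minus 0.5, and SDs as the square root of the variance divided by the natural log of 2. Lengths came from GENCODE M21 (GRCm38), to which 98.6% of transcripts (33720) were matched by identifier. The level per kilobase of a gene is the sum of those of its tested transcripts. The SD of a gene is the largest that its transcripts allow, namely the mean of their SDs weighted by level. Percentiles of SDs were taken among the 500 transcripts nearest in mean. Words of 31 bases were compared on both strands. Labels do not say that libraries of a group came from separate cultures. The depth of single libraries is unknown, and the levels of all transcripts summed to 65222063. The calculations were tested on simulated data and used Python 3.11.15, NumPy 2.4.6 and pandas 2.3.3. All members are named. From the wider list, the genes named are the 3 highest of each role and some paralogs or partners of members, with *Nog* and *Bmp3* besides. Members, lists and rules were chosen with earlier results of these data known.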

Additional observations from a re-analysis of the deposited data

How the results depend on the processing

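The levels per kilobase of all 10 genes moved by less than 1 SD with an arithmetic mean and with an effective length (the annotated length minus 200 bases), although the arithmetic mean took *Bmp4*, with its wide SD, from 1.05 to 2.38. With the most abundant transcript alone in place of the sum, 8 did so, and *Bmpr1a* moved from 1185 to 899 and *Smad1* from 580.4 to 532. Level percentiles moved by more than 1 SD of the level in 10 of 16 transcripts when only those with a level of at least 10 were kept, where *Bmp4* gave no value, and in 11 of 17 with 1 transcript per gene. With 1000 in place of 500 neighbouring transcripts, the SD percentile moved by more than 5 points only in *Bmp4*, from 14.4 to 22.5. Without the variance from read assignment, the SD of 14 transcripts moved by less than the standard error of an SD over 4 values, and 3 gave no value. A minimum of 100 bases past the donor site, chosen after seeing the data, left 4 of the 5 genes with more than 1 tested transcript with a read-through isoform, against 15.3% of all such genes.

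The alternatives planned for KD against WT (DESeq2, no filter on low counts, each replicate left out in turn, the replicate block) were not run, for want of values per library. No paired analysis was possible because the columns used are pooled over the 4 libraries and carry no replicate number. The depth of single libraries is unknown.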
